A study of Homo sapiens with 3 samples.

Results

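Promoter contacts were described for 8 genes of the cardiac thick filament and its anchorage, in hESC-CM, which are cardiomyocytes grown from a human embryonic stem cell line. They were the myosin light chains MYL2, MYL7, MYL3 and MYL4, cardiac myosin-binding protein C (MYBPC3), the cardiac myosin light chain kinase MYLK3 and the myomesins MYOM1 and MYOM2. A promoter fragment was a captured HindIII restriction fragment holding an annotated transcript start of one of these genes, and every listed pair of fragments that included it was taken. This gave 9 promoter fragments of 19075 with any listed contact, because MYL3 had 2 adjacent ones and each other gene had 1. They took part in 79 of the 200587 contacts called in at least 1 replicate.

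Promoter capture Hi-C joins neighbouring stretches of crosslinked chromatin by ligation and enriches the products for promoters, so that each call joins a promoter to a promoter-interacting region (PIR). The 3 biological replicates came from a single line, WA09 (H9), at passage 32, and no genetic change or drug was named for any of them. Cells were given differentiation media A and B for 2 days each, maintenance medium for 1 day, B27 without insulin for 6 days and with it for 2 days. Glucose-free medium with 4 mM lactate for 6 days enriched the cardiomyocytes, and 2 days of recovery in serum and 7 further days of culture preceded fixation, at a purity of at least 80 to 90% as judged from MYH7 and TNNT2. Contact scores do not measure expression, so the identity of the cells could not be checked against markers here, and cardiomyocytes cannot be told apart from the other cells in the culture. This was the 1 condition, with no control group, so no groups were compared and no p-value was computed.

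Myosin heads of the thick filament each carry an essential and a regulatory light chain, which stiffen and tune the lever that pulls on actin. In the heart, MYL2 and MYL7 are the regulatory light chains of ventricle and atrium, and MYL3 and MYL4 are the essential ones. MYLK3 phosphorylates the regulatory light chain, MYBPC3 binds the myosin heads and restrains them, and the myomesins crosslink thick filaments at the M-band. Variants in MYBPC3, MYL2 and MYL3 are known causes of inherited cardiomyopathy.

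Each contact carries a CHiCAGO score, which rises with the excess of read pairs over a background set by distance and technical noise. The lowest score listed was 5 in each replicate, so an unlisted contact was not shown to be absent, and the depth behind a score was not analysed here. Over the series the replicates listed 112473, 109731 and 110740 contacts, with median scores between 6.63 and 6.65. Promoter fragments had a median of 6 contacts (quartiles 3 and 14), and a median of 1 called in all 3 replicates.

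The 79 contacts of the 8 genes comprised 21 listed in every replicate, 15 listed in 2 replicates and 43 in 1. The share called in all 3 was 26.6% (95% Wilson interval 18.1 to 37.2%, counting error only), beside 24.0% of all contacts of the series. A contact in all 3 replicates was listed for 5 of the 8 genes, which were MYL7, MYL4, MYBPC3, MYLK3 and MYOM1. Counted by fragment, 5 of their 9 promoter fragments had one, beside 51.9% of all promoter fragments. Both shares lay near those of the whole series, so neither sets the 8 genes apart. MYBPC3 alone held 14 of the 21.

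The replicates differed in how many contacts they listed for these promoters, with 49 in replicate 1, 53 in replicate 2 and 34 in replicate 3. Replicate 3 was the lowest here while its total over the series lay between those of the other replicates. Calls made in a single replicate numbered 14 for replicate 1, 23 for replicate 2 and 6 for replicate 3. Per replicate, MYBPC3 had 19.3 ± 4.16 contacts (SD, n = 3), MYL7 9.67 ± 5.51, MYLK3 7.33 ± 5.13, MYOM1 3.67 ± 0.577 and MYL4 2.67 ± 0.577. MYOM2 followed with 1.33 ± 1.53, MYL2 with 0.667 ± 0.577 and each MYL3 fragment with 0.333 ± 0.577. MYBPC3 had more contacts than any other of these genes in every replicate. Below it the ranges of neighbours in this order overlapped, and the MYL7 range (6 to 16) lay above that of MYOM1 (3 to 4).

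**Figure D1:**
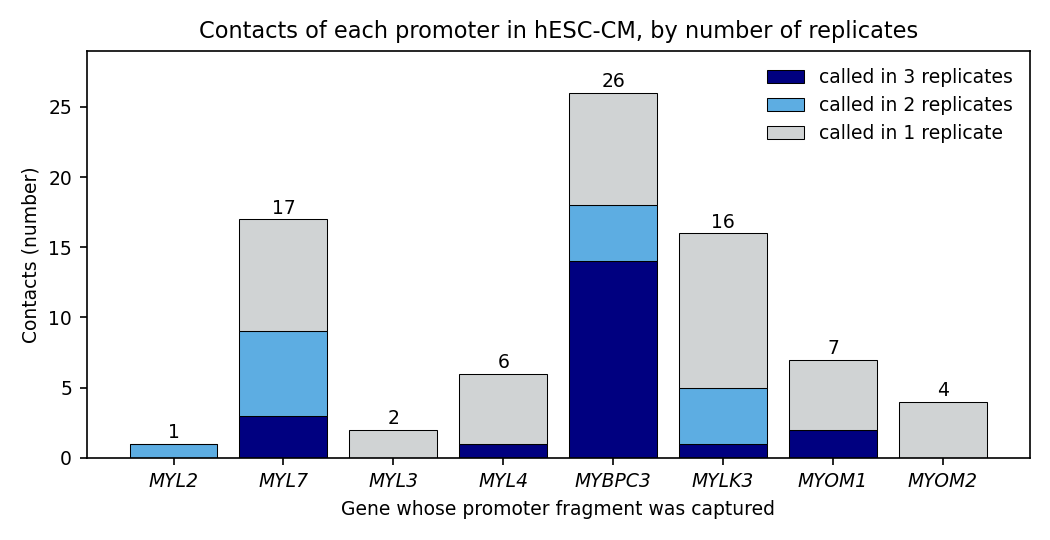
Contacts of the promoter fragments of each gene (y axis, number), stacked by whether a contact was called in 3, 2 or 1 of the replicates. MYBPC3 had 26 contacts with 14 in all 3 replicates, while MYL2, MYL3 and MYOM2 had 1, 2 and 4 contacts with none in all 3.

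Set against all promoter fragments, the genes spanned most of the range. MYBPC3 had more contacts than 89.3% of promoter fragments and, with its 14 contacts in all 3 replicates, more of those than 95.2%. MYL7 with 17 contacts exceeded 79.9% and MYLK3 with 16 exceeded 78.1%. MYOM1 with 7 contacts and MYL4 with 6 lay near the middle, above 50.1% and 44.6%, and MYOM2 with 4 exceeded 30.0%. MYL2 and both MYL3 fragments had 1 contact each, the fewest a listed fragment can have. The captured fragments of the 8 genes differed in length, from 1181 bp for MYOM2 to 20166 bp for MYBPC3. Over the series the 4770 longest promoter fragments (10.7 to 156 kb) had a median of 5 contacts and the 4766 shortest (0.123 to 3.79 kb) a median of 8, and MYBPC3, MYL7, MYLK3, MYL4 and MYL2 were all among the longest. The part of fragment length in these counts was not tested.

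**Figure D2:**
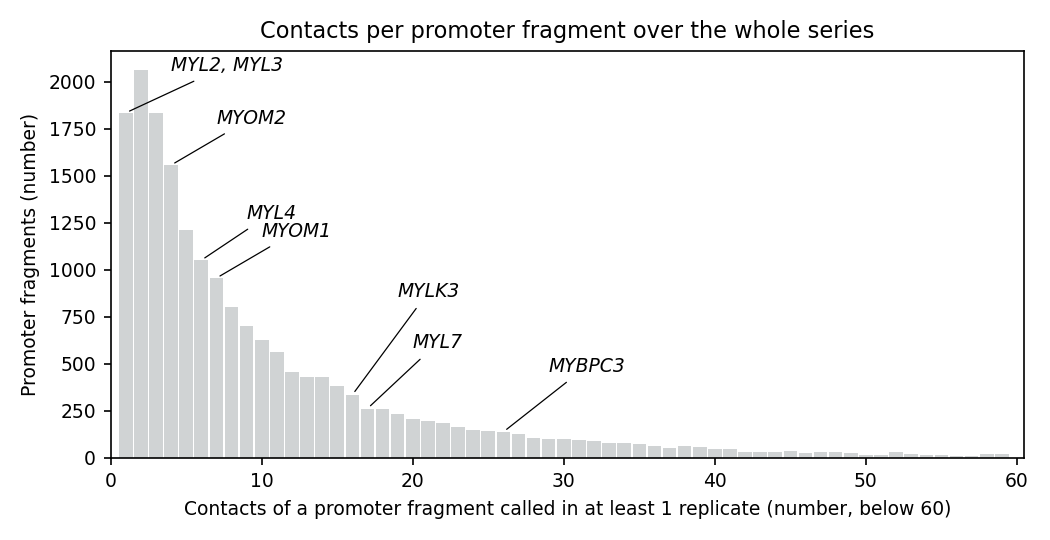
Number of promoter fragments of the whole series (y axis) with each number of contacts in at least 1 replicate (x axis, below 60), with the 8 genes marked. MYL2 and MYL3 sit at 1 contact, MYL4 and MYOM1 near the median of 6, and MYBPC3 at 26 in the upper tail.

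Contacts with a high highest score were more often called in all 3 replicates, which is in part built in because the maximum of 3 values is set against that of 1 or 2. Where the highest score of a contact was from 5 to below 6, 1 of 35 member contacts was called in all 3 replicates. Of such contacts over the series, 1.99% were called in all 3. Between 6 and 8, the member count was 3 of 23 (13.0%), beside 17.95% of such contacts over the series. At 8 or above it was 17 of 21 (81.0%), beside 58.4% of such contacts over the series. Most of these 17 belonged to the MYBPC3 promoter, whose PIRs lie near each other, so the share cannot be read for the 8 genes as a set. No contact of the 8 genes reached another chromosome, compared with 3.87% over the series. Within 1 Mb lay 61 of the 79, beside 111714 of 200587 over the series, and the 61 included all contacts of MYBPC3 and MYL7. The median distance between fragment midpoints was 104 kb for the 79 contacts and 716 kb for all contacts. It differed between the genes, and the pooled value rests mainly on MYBPC3 (median 78.0 kb) and MYL7 (66.25 kb), which had the most contacts. The median was 99.5 kb for MYL4, 442 kb for MYOM1, 1502 kb for MYLK3 and 49475 kb for MYOM2. The single MYL2 contact spanned 366 kb, and those of the MYL3 fragments 485 and 36842 kb. Contacts in all 3 replicates spanned 13.4 to 405 kb, and none of the 18 beyond 1 Mb was called in all 3 replicates. Of these 18, 10 belonged to MYLK3. Over the series, same-chromosome contacts in all 3 replicates had a median of 395 kb and reached 218154 kb. The share of contacts beyond 1 Mb called in all 3 was not computed over the series, so the 18 have no baseline.

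The other ends lay mainly in genes. An annotated protein-coding gene overlapped 74 of the 79 PIRs and all 21 of those called in all 3 replicates. Over all contacts of the series, seen from each promoter fragment, 59.5% of the other ends overlapped a protein-coding gene, and 61.4% of those called in all 3 replicates did. The PIRs of 1 promoter lie near each other and share genes, so no test was made. Another promoter fragment was the partner in 14 contacts (17.7%), beside 9.59% of contacts over the series. Of the 14, 6 were at MYL7 and 4 at MYBPC3, while MYL2, MYL4 and MYLK3 had none. This share therefore cannot be read for the 8 genes as a set. Contacts within the gene's own body numbered 5, all at MYBPC3, and their share over the series was not computed. The body of MYL7 lies wholly within its promoter fragment, as do most of those of MYL2 and MYL4. Such contacts were therefore impossible or nearly so for these genes, and the count does not set MYBPC3 apart from them.

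**Figure D3:**
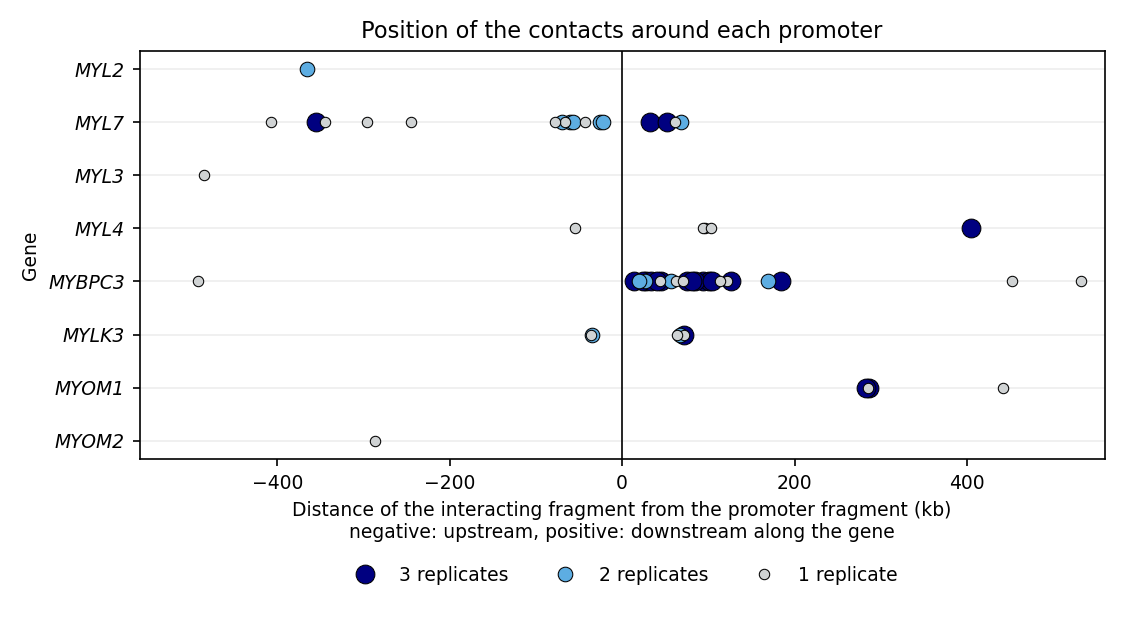
Distance of each nearby PIR from its promoter fragment (x axis, kb, positive in the direction of transcription), for each gene (y axis), with larger and darker points for more replicates. MYBPC3 contacts crowd into the downstream side, 23 of 26 within 200 kb of the promoter, MYL7 contacts lie on both sides, and the MYL4 and MYOM1 contacts in all 3 replicates lie at 405 kb and near 285 kb.

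Of the regulatory light chains, MYL7, the atrial form, had 17 contacts and MYL2, the ventricular form, had 1. On the merged replicates the counts were 6 for MYL7 and 5 for MYL2, so the size of this difference rests on the replicate calls. All 7 annotated MYL7 start positions fell in 1 promoter fragment (GRCh37 chr7:44165020-44184171). The 250 bases upstream of the RefSeq start of MYL7 (table build GRCh38.p14) were found unaltered in that fragment at chr7:44180932-44181181 of GRCh37, on the minus strand. They are shown to place the motifs at the captured promoter, with a TEAD motif (GGAATG) and the CArG box of SRF in capitals.
MYL7 promoter: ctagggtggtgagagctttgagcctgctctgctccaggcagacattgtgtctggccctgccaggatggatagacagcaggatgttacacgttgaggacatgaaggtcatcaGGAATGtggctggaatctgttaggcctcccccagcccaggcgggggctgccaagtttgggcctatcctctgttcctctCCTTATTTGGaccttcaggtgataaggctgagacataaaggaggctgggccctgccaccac
The letters AGATAA of GATA factors, the letters AAGTG of NKX2-5 and the MEF2 motif were also searched on both strands and had no match in this window. Among 35116 RefSeq promoters, 11.9% held the TEAD letters and 1.16% the CArG box in the same 250 bases. A match is a run of letters and was not tested for binding.

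The 3 MYL7 contacts in all 3 replicates each ended on another captured promoter. The highest joined MYL7 to the fragment with a start of AEBP1, 32.1 kb downstream, with scores of 12.44, 8.84 and 10.25 in replicates 1, 2 and 3 (10.5 ± 1.81, SD, n = 3). The POLM promoter fragment, which belongs to a DNA polymerase gene and lies 52.4 kb downstream, scored 9.55, 6.69 and 8.84 (8.36 ± 1.49). The NUDCD3 promoter fragment, 355 kb upstream, scored 8.16, 7.90 and 6.94 (7.67 ± 0.643). Replicate 1 gave the highest score of each, and the AEBP1 scores overlapped those of POLM but all lay above those of NUDCD3.

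Replicate 1 also listed most of the other MYL7 contacts, since it had 16 where replicates 2 and 3 had 6 and 7, and 7 contacts were called in it alone. Without replicate 1, MYL7 had 10 contacts.

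The MYL7 promoter fragment abuts that of POLD2, and the neighbours shared many partners. Of the 17 MYL7 PIRs, 11 were also PIRs of the POLD2 fragment, which had 27 in all. PGAM2, which encodes muscle phosphoglycerate mutase, has a captured promoter that was itself a MYL7 partner in replicates 1 and 3 (5.29 and 6.27) and shared 9 PIRs with MYL7.

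MYL2 had 1 contact. All 5 of its annotated start positions lay in the promoter fragment chr12:111350041-111363260, and its PIR was a short fragment within an intron of CUX2, a homeobox gene, 366 kb upstream. The contact scored 6.63 in replicate 1 and 5.37 in replicate 3 and was not listed in replicate 2, and on the merged replicates it scored 8.79. The PIR (chr12:111722246-111722424 of GRCh37, plus strand) is shown whole because it is the single MYL2 partner, with the NKX2-5 letters (AAGTG or their complement) in capitals.
MYL2 PIR: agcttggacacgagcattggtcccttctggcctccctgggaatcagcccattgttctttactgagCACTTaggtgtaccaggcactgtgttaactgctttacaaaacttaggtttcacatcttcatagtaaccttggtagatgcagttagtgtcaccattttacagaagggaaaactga
GATA, TEAD, MEF2 and CArG letters were not in it. The NKX2-5 letters are common, and 39.4% of windows of the same length at the middle of 120315 interacting or promoter fragments held them. Further PIR windows were searched and are not shown. Those of MYL7 and MYL4 held none of the searched motifs. Those of MYL3, MYBPC3 and MYOM1 held NKX2-5 letters, except 1 of MYBPC3. The PIR sequences shown in this report thus do not give the frequency of these letters.

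Among the essential light chains, MYL4, the atrial form, had 6 contacts and MYL3, the ventricular form, had 2. The MYL4 promoter fragment (chr17:45285087-45303066) held 8 of 9 annotated starts and listed 2, 3 and 3 contacts in replicates 1, 2 and 3. Its 1 contact in all 3 replicates ended in NPEPPS, which encodes a puromycin-sensitive aminopeptidase, 405 kb downstream, with scores of 5.46, 5.85 and 7.47 (6.26 ± 1.07). This was the longest of the 21 contacts called in all 3 replicates.

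MYL4 also had a group of single calls near ITGB3, the integrin beta 3 gene. There 3 PIRs, spanning 13.6 kb at 94.1 to 103 kb downstream, were each called in a different replicate. The scores were 5.48 in replicate 1, 5.14 in replicate 2 and 8.28 in replicate 3. No single fragment was called more than once, although each replicate had a call in the block. How often single calls lie together in this way over the series was not computed. The promoter fragment of ITGB3 itself shared 3 of the 6 MYL4 PIRs.

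Of 7 annotated MYL3 starts, 5 lay in 2 adjacent promoter fragments that also hold starts of PTH1R, the parathyroid hormone receptor, so a contact there cannot be assigned to either gene. The fragment chr3:46904634-46919992 had 1 contact, with the FANCD2 promoter fragment at 36842 kb, in replicate 1 (score 5.41). The fragment chr3:46919993-46929530 had 1 contact, with a fragment between KLHL18 and PTPN23 at 485 kb, in replicate 2 (score 5.70). Neither was listed on the merged replicates, which held 0 MYL3 contacts. MYL3 therefore had no contact seen more than once.

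MYBPC3 had the most contacts of the 8 genes, 26, and its single annotated start lay in the promoter fragment chr11:47370867-47391032, which also overlaps SPI1, a myeloid transcription factor gene. Replicates 1, 2 and 3 listed 18, 24 and 16 contacts. The upstream 250 bases (chr11:47374254-47374503 of GRCh37, minus strand, RefSeq GRCh38.p14 sequence found unaltered in the fragment) are shown because this promoter carries most of the recurrent contacts. Capitals mark a MEF2 motif and then a GATA motif (AGATAA).
MYBPC3 promoter: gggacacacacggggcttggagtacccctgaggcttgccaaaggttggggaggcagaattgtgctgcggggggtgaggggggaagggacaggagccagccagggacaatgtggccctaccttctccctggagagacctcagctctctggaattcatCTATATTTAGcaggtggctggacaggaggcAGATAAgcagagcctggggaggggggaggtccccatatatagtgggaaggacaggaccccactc
A MEF2 match was held by 2.80% and the GATA letters by 9.17% of all 35116 promoters. The TEAD, NKX2-5 and CArG letters were not in this window.

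Transcription of MYBPC3 runs away from SPI1, and 25 of the 26 contacts were on that downstream side. Of these, 21 formed a block of 115 kb (chr11:47254546-47369269) that ran through MYBPC3, MADD, NR1H3, ACP2 and part of DDB2, with 13 of the 21 called in all 3 replicates. NR1H3 encodes the liver X receptor alpha, and MADD encodes a regulator of Rab GTPases. Within 5 kb, 21 of the 26 MYBPC3 contacts had a call in every replicate, compared with 14 at identical fragments. Matching within 5 kb can only add to the count, and neighbouring PIRs of the block can match each other. The same count was not made over the series.

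The 2 highest MYBPC3 contacts were with a captured promoter and with the gene itself. The fragment with starts of MADD and NR1H3, 93.4 kb downstream, scored 13.18, 15.03 and 9.82 in replicates 1, 2 and 3 (12.7 ± 2.64, SD, n = 3). A fragment in the MYBPC3 gene body, 13.4 kb downstream, scored 13.68, 13.81 and 9.92 (12.5 ± 2.21). The range of the second contact lay within that of the first, and replicate 3 was the lowest in both. Between them, the MADD fragments called in all 3 replicates at 34 to 46 kb had lower scores, with means of 6.14 to 6.94.

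The gene-body PIR spans chr11:47365764-47369269 and covers MYBPC3 exons and introns. Its middle 300 bases (chr11:47367367-47367666, plus strand, GRCh37) are shown as the closest PIR called in all 3 replicates, with the NKX2-5 letters in capitals.
MYBPC3 gene-body PIR, middle: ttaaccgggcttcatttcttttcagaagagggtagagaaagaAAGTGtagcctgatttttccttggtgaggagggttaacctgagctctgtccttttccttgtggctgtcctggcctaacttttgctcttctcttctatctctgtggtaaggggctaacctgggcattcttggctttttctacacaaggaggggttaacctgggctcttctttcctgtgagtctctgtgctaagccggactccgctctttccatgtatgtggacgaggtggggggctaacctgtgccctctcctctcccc
Of the middle windows of all fragments, 57.0% held these letters. No GATA, TEAD, MEF2 or CArG match was in the window.

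The next contacts lay on both sides of the MADD and NR1H3 promoter and in the MYBPC3 gene body. An NR1H3 fragment at 101 kb scored 7.75, 11.35 and 9.51 (9.54 ± 1.80). In the gene body, a fragment at 28.0 kb scored 7.46, 11.63 and 7.46 (8.85 ± 2.41) and one at 24.7 kb scored 7.08, 10.23 and 7.75 (8.35 ± 1.66). The body fragment between these, at 26.2 kb, scored 9.48 and 10.96 in replicates 1 and 2 and was not listed in replicate 3. The 3 neighbours thus all had their highest score in replicate 2. On the near side of MADD and NR1H3, a MADD fragment at 74.9 kb scored 9.42, 8.14 and 7.99 (8.52 ± 0.786). Beyond the block, the promoter fragment of ARFGAP2 and PACSIN3, at 184 kb, scored 10.54, 9.40 and 5.40 (8.45 ± 2.70). In that contact replicate 3 was close to the listing limit. A short DDB2 fragment of 351 bp at 126 kb scored 8.20, 9.76 and 6.25 (8.07 ± 1.76).

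By gene, MADD overlapped 11 of the 26 PIRs (7 in all 3 replicates), MYBPC3 itself 5 (3 in all 3) and NR1H3 4 (3 in all 3). Replicate 2 gave the highest score in 11 of the 14 contacts in all 3 replicates and was the only replicate to call 7 others. Without replicate 2, MYBPC3 had 19 contacts. Over all 21 contacts of the 8 genes in all 3 replicates, the SD between replicates had a median of 1.49 and was 17.7% of the mean at the median.

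**Figure D4:**
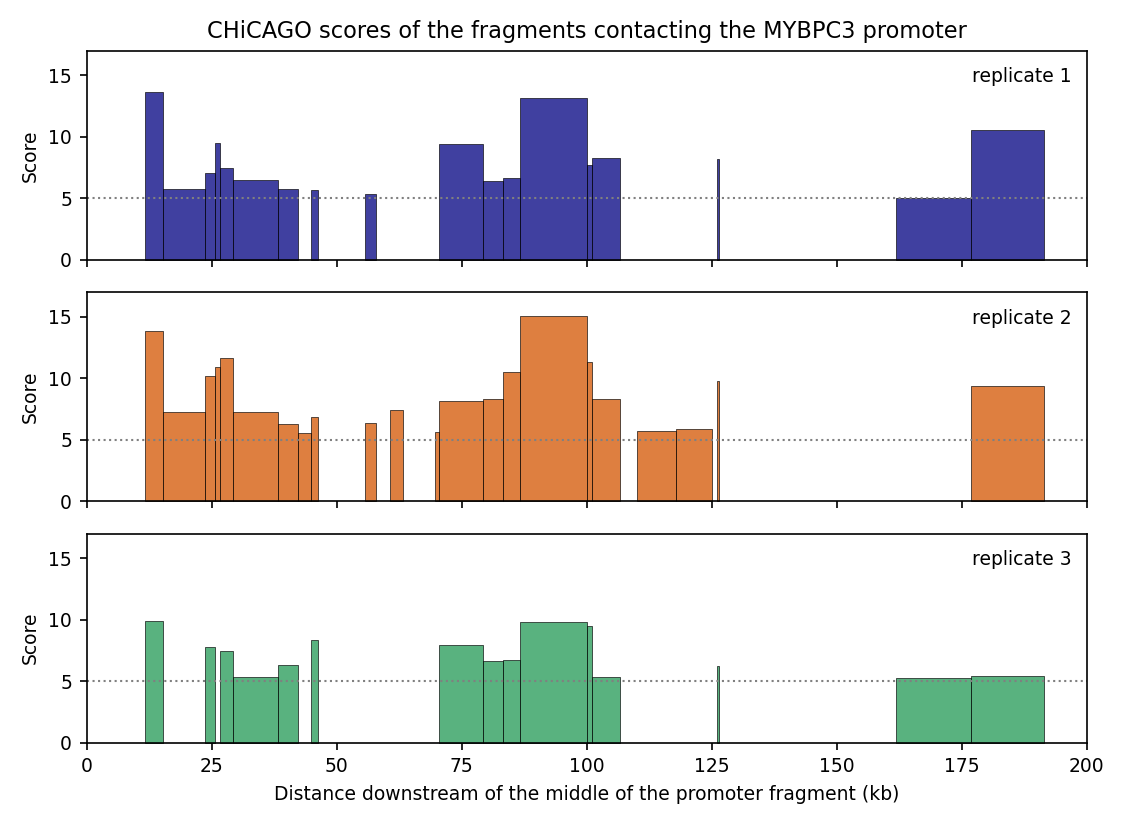
CHiCAGO score (y axis) of each fragment contacting the MYBPC3 promoter, drawn at its width and distance downstream (x axis, kb), in a panel for each replicate; the dotted line is the listing limit of 5, and gaps are fragments not listed. All 3 replicates show the fragment at 13.4 kb and the fragments around 93.4 kb, and replicate 2 fills more of the stretch between.

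The contact between the MYBPC3 and MADD/NR1H3 regions was also seen from the other side. The MADD/NR1H3 promoter fragment called 3 fragments of the MYBPC3 gene body in all 3 replicates. The first, next to the MYBPC3 promoter fragment, scored 6.94, 6.76 and 9.47 (7.72 ± 1.52). The others had means of 6.45 ± 0.857 and 6.24 ± 0.839. Replicate 3 was the highest in each of these, whereas it was the lowest for the contact between the promoters themselves. Of the 26 MYBPC3 PIRs, 12 were also PIRs of the MADD/NR1H3 fragment, which had 20.

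MYLK3 had 16 contacts, with 6, 13 and 3 in replicates 1, 2 and 3. Its promoter fragment (chr16:46791196-46803806) held 1 of 7 annotated starts, so the count describes that start only. A further protein-coding start lay outside it. The 250 bases upstream of the RefSeq start of MYLK3 were not found unaltered in the fragment. Whether these are contacts of the RefSeq promoter is therefore not known, and the cause of the mismatch was not tested. The 1 contact in all 3 replicates ended in an intron of ORC6, an origin recognition complex gene, 72.0 kb downstream, and scored 8.67, 8.76 and 7.54 (8.32 ± 0.680). On the merged replicates it scored 10.47, above each single replicate. The PIR (chr16:46725358-46725564, plus strand, GRCh37) is 207 bp long and is shown whole, with the NKX2-5 letters and then the GATA letters in capitals, 1 base apart.
MYLK3 PIR: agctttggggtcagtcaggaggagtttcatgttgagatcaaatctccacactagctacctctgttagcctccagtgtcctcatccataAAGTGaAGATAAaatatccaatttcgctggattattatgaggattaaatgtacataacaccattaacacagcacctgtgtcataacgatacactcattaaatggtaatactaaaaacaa
Of 120315 middle windows of the same length, 52982 held the NKX2-5 letters and 17691 (14.7%) the GATA letters. TEAD, MEF2 and CArG letters were not in it.

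The ORC6 PIR was the end of a block of 4 fragments over 9.81 kb, of which another was called in replicates 1 and 2 (5.13 and 6.20) and the other two in replicate 2. In the other direction, fragments of C16orf87 near 36 kb were called with 5.20 and 7.15 in replicates 1 and 2, and with 5.99 in replicate 2 at the neighbour. A separate group of 8 PIRs lay 1466 to 1854 kb upstream, mainly in LONP2, a peroxisomal protease gene (6 PIRs). Of these, 2 were called in 2 replicates, at 1494 kb (6.25 and 6.49 in replicates 1 and 2) and at 1558 kb (6.49 and 6.68 in replicates 2 and 3), and none in all 3. Replicate 2 alone called 8 of the 16 MYLK3 contacts, and without it 8 were left.

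A start of MYLK3 outside the captured fragment was reached by a different promoter. The fragment chr16:46781029-46783322 holds a protein-coding MYLK3 start and was called with the promoter fragment of ORC6 and VPS35, 61.3 kb away, at 5.51, 5.41 and 5.66 (5.53 ± 0.126). These 3 scores were close to each other and to the limit of 5. The ORC6 and VPS35 promoter fragment also shared 6 of the 16 MYLK3 PIRs, of 32 that it had.

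Of the myomesins, MYOM1 had 7 contacts and MYOM2 had 4. The MYOM1 promoter fragment (chr18:3210222-3220746) held 2 of 6 annotated starts and listed 4, 3 and 4 contacts in replicates 1, 2 and 3. Both contacts in all 3 replicates lay in LPIN2, which encodes a phosphatidate phosphatase, close together and 284 to 287 kb downstream. The first, a fragment of 686 bp, scored 6.94, 8.42 and 7.81 (7.72 ± 0.744), and 11.70 on the merged replicates. The other, which holds an LPIN2 start, scored 5.85, 5.92 and 5.55 (5.77 ± 0.197), and 8.53 on the merged replicates. The 3 scores of the first contact all lay above those of the other. A fragment between them was called in replicate 2 (5.62).

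The MYOM1 sequences are shown because promoter and PIR were joined in every replicate. The promoter window is chr18:3219967-3220216 (minus strand) and the PIR window is the middle 300 bases of the first LPIN2 fragment, chr18:2928415-2928714 (plus strand), both in GRCh37. Capitals mark GATA and NKX2-5 letters and a CArG box in the promoter, and NKX2-5 letters in the PIR.
MYOM1 promoter: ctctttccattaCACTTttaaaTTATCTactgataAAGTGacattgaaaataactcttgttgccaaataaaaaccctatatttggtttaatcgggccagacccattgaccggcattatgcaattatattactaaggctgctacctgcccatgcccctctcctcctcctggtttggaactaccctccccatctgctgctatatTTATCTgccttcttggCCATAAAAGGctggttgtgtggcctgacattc
MYOM1 PIR, middle: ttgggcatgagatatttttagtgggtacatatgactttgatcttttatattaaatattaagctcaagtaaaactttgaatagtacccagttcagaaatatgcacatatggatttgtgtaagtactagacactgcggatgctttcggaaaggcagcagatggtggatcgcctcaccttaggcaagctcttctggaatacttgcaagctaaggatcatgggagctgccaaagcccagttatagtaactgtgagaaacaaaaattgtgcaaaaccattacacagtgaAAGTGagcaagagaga
The promoter held 2 GATA matches, 2 NKX2-5 matches and 1 CArG box. Of all promoters 37.6% had NKX2-5 letters, and the shares for the GATA letters and the CArG box were the 9.17% and 1.16% given above. Among the middle windows of all fragments, 57.0% held the NKX2-5 letters. TEAD and MEF2 had no match in the promoter, and GATA, TEAD, MEF2 and CArG had none in the PIR window.

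MYOM1 PIRs were shared with neighbouring promoters. The LPIN2 promoter fragment and that of EMILIN2 each shared 4 of the 7, out of 22 and 47 PIRs of their own, and the promoter fragment of MYL12A, a non-muscle regulatory light chain, shared 3. The remaining MYOM1 contacts were called once each, and 3 of them were beyond 1 Mb. The body of MYOM1 was contacted by other promoters in 15 pairs, none in all 3 replicates. The highest were from the SMCHD1 promoter fragment, with 13.00 and 8.07 in replicates 1 and 2 at 303 kb, and SMCHD1 is named here after its values were seen.

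The MYOM2 promoter fragment held 2 of 15 annotated starts, and its 4 contacts were each called once, with scores from 5.16 to 6.14. The nearest was the CLN8 promoter fragment, 287 kb upstream, at 5.80 in replicate 1. The others lay 40705 to 72501 kb away in replicate 2, on the same chromosome. Without replicate 2, MYOM2 had 1 contact. At 1181 bp its fragment was the shortest of the 9.

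**Figure D5:**
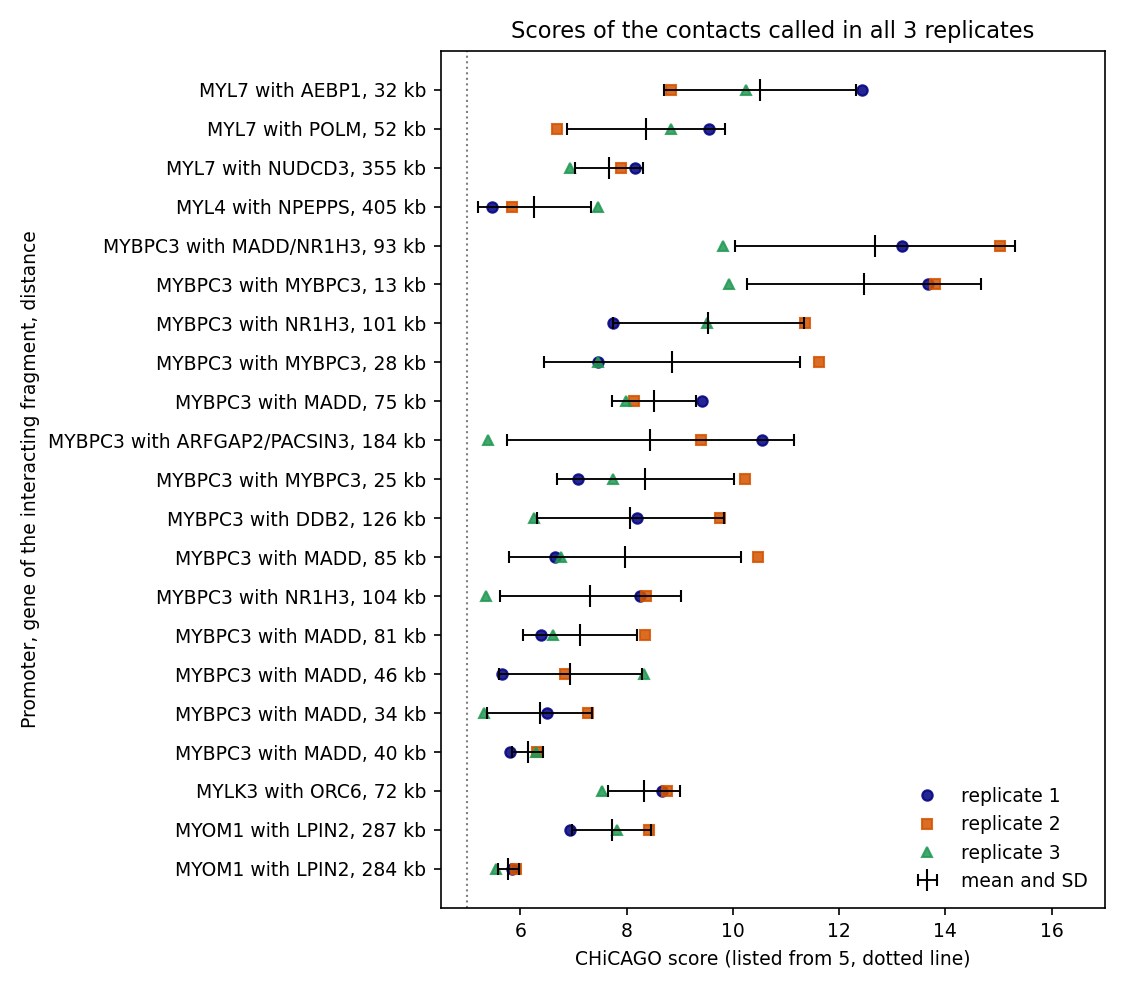
CHiCAGO scores (x axis) in replicates 1, 2 and 3 of the 21 contacts called in all 3, with the mean and SD, labelled by promoter, gene of the PIR and distance. The MADD/NR1H3 and gene-body contacts of MYBPC3 and the AEBP1 contact of MYL7 have the highest means, 12.7, 12.5 and 10.5, and the LPIN2 contact at 284 kb the narrowest spread.

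The base composition of the PIRs differed between the genes. The median GC content was 52.7% for MYL7 PIRs and 50.7% for those of MYBPC3, compared with 39.3% for MYLK3, 39.9% for MYOM1 and 42.2% for MYL4. Over 120301 fragments of the series of at least 300 bp it was 40.8%. The part of base composition in the scores was not tested.

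Related genes were counted in the same way. Of 17 other light chain, binding protein, kinase and myomesin paralogs, 15 had a promoter fragment with a contact, 10 had a contact in all 3 replicates and the median was 8 contacts (range 0 to 70, highest for MYL11, with the 0s at genes without a promoter fragment). Of 17 other sarcomere genes of heart muscle, 13 had a contact in all 3 replicates and the median was 11 (range 2 to 105, highest for MYOZ2). The 8 genes had a median of 6.5 (range 1 to 26). The share of contacts called in all 3 replicates was 24.7% for the paralogs and 37.2% for the sarcomere genes, beside 26.6% here and 24.0% overall. Among the sarcomere genes, MYH7, the ventricular heavy chain that the light chains bind, had 26 contacts with 13 in all 3, close to the counts of MYBPC3, and MYH6, the atrial form, had 32 with 16.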

How the data were processed

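The authors cut DNA with HindIII, captured promoter fragments, aligned the read pairs with HiCUP and called contacts with CHiCAGO on GRCh37. The deposited files list a CHiCAGO score for each pair of fragments, per replicate and for the merged replicates, without read counts, and no score was recomputed. Promoter fragments were identified through GENCODE 44 mapped to GRCh37, and the ends of all 88 fragments used were checked to lie at HindIII sites. Ensembl annotation was used by the authors for the capture design. A contact was an unordered pair of fragments with a score of at least 5 in at least 1 replicate. PIRs within 10 kb of each other formed a block. Distances are between midpoints, SDs are between replicates and intervals are Wilson intervals at 95%. Promoter sequences of 5 of the 8 genes were in the RefSeq table, and those of MYL7, MYBPC3 and MYOM1 are shown. The MYL3 window held none of the searched motifs, and the MYLK3 window held 1 GATA and 1 TEAD match. Neither window was found unaltered in a promoter fragment of its gene, and neither is shown. The promoter sequences shown thus do not give the frequency of these motifs.

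Named contacts were, for each gene, the 3 highest by mean score among those called in all 3 replicates, or otherwise the highest, and contacts in all 3 replicates with another promoter fragment. Named after their values were seen were the PGAM2 contact of MYL7, the ITGB3 block of MYL4, the MADD, DDB2 and gene-body contacts of MYBPC3 below its top 3, the other ORC6, C16orf87 and LONP2 contacts of MYLK3, contacts of other promoters with the bodies of MYBPC3, MYLK3 and MYOM1, CLN8, SMCHD1, MYL12A, MYH6 and MYH7. The members and gene lists were chosen with earlier results of these data known. Counting was tested on 5000 simulated contacts, where 4 of 4 counts were recovered. Alternatives were scores of at least 7 and 10, each replicate left out, ordered pairs, protein-coding starts and same-chromosome contacts. Others were no contacts between promoters, matching within 5 kb, merged calls and medians. Python 3.11.15, numpy 2.4.6, pysam 0.24.0 and matplotlib 3.10.9 were used. Replicates are separate differentiations only as far as the labels call them biological replicates. Some contacts of MYL7 are not reported here.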

Additional observations from a re-analysis of the deposited data

Results flagged for a closer look

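Calls on the merged replicates lie outside the replicate comparison, and they held 10 contacts of these promoters that no single replicate listed, of 48 in all (20.8%, beside 25.5% of the 152757 merged calls of the series). Their scores were 5.08 to 6.55. MYL2 accounted for 4 of them, at 351 to 439 kb upstream in CUX2 and PHETA1, in addition to the CUX2 fragment called in replicates 1 and 3, so that MYL2 had 5 merged contacts and 1 from the replicates. MYOM1 had 3, in SMCHD1, LPIN2 and its own gene body, MYLK3 had 2, in its own body and in C16orf87, and MYOM2 had 1, in ARHGEF10. These contacts have no replicate values, and why they were listed only on the merged replicates was not tested.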

How the results depend on the processing

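At a score of at least 7, 32 contacts were left, with a share in all 3 replicates of 25% and 3 genes. At a score of at least 10, 9 contacts were left, with a share in all 3 replicates of 0% and 0 genes. The shares at these limits were not computed over the series. The merged replicates held 48 contacts. Leaving out each replicate gave 56 to 73 contacts, a share in all remaining replicates of 33.8 to 48.2%, which rises by construction as fewer replicates must call, and 5 or 6 genes. Matching within 5 kb gave a share of 49.4%, which cannot fall below the share at identical fragments and was not computed over the series. On the merged replicates the highest contact scored 16.08 for MYBPC3, 10.47 for MYLK3 and 11.70 for MYOM1, and the cause was not tested. Ordered pairs gave 80 contacts and 26.3% in all 3. Without replicate 1, MYL7 had 10 contacts and MYL3 1, and without replicate 2, MYLK3 had 8, MYOM2 1 and MYL3 1. Of 80 recomputed counts per gene, 50 stayed within 1.5 times the reported count and 30 did not. The 50 include counts that did not change at all. Keeping only same-chromosome contacts could not alter any, since no contact reached another chromosome, and protein-coding starts gave the same count for every gene. No paired analysis was possible because there was 1 group. Depth per replicate was not analysed, scores under 5 are not listed, and with 3 replicates of 1 line the spread covers this line only.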
